A study of Mus musculus with 38 samples.

Results

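The 10 genes described here mark T cells and natural killer (NK) cells or encode their killing machinery. They were chosen by gene symbol and were followed through the raw counts of 38 bulk RNA-Seq libraries in 10 groups of 3 mouse experiments on FGF23, a phosphate-lowering hormone from bone whose levels climb in kidney disease. The count table lists 55487 genes, and all 10 symbols were found in it. In the anti-GBM experiment, the healthy groups held 4 mice with vehicle and 3 with FGF23, and so did the diseased groups. These were male C57BL/6JRj mice of 10 weeks. The diseased mice were first immunized with sheep IgG in Freund's complete adjuvant and then received nephrotoxic serum, while the controls received PBS. Recombinant human FGF23 (1 µg) or PBS-BSA was injected daily over 6 days, with kidneys taken 24 h after the last injection. In the Adriamycin experiment, the same 4 combinations held 4 female BALB/c mice of 10 weeks each. Adriamycin is a podocyte toxin, and 1 injection of FGF23 or vehicle preceded kidney collection by 24 h. Precision-cut kidney slices (PCKS) came from male DBA/2J mice of 23 weeks on an adenine diet, and 4 slice cultures with vehicle were set against 4 with FGF23. In the mice, RNA came from a fragment of the renal pars intermedia. No slices of disease-free mice were analysed, and the labels give 1 h of slice treatment where the study's text gives 24 h. Strain, sex, age, disease and tissue preparation differ together between the 3 experiments and cannot be told apart, so tests were run within experiments.

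T cells recognise antigen through a receptor that signals by way of the CD3 chains, which Cd3d, Cd3e and Cd3g encode. Cd4 encodes the co-receptor of helper T cells and is also carried by some dendritic cells and macrophages, and Cd8a encodes a chain of the co-receptor of cytotoxic T cells. Cytotoxic T cells and NK cells kill through granules: perforin (Prf1) opens the way into the target cell, the proteases granzyme A (Gzma) and granzyme B (Gzmb) trigger its death, and Nkg7 encodes a protein of the granule membrane. Klrb1c encodes NK1.1, the receptor that marks NK cells in C57BL/6 mice, and BALB/c and DBA/2 mice do not carry the classical NK1.1 epitope. In crescentic glomerulonephritis such as anti-GBM disease, T helper cells are known to enter the kidney.

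The 3 CD3 genes lie side by side on chromosome 9 of GRCm38. Cd3g (ENSMUSG00000002033, positions 44969572 to 44980431, minus strand) and Cd3d (ENSMUSG00000032094, 44981786 to 44987339, plus strand) start 1355 bases apart and point away from each other, and Cd3e (ENSMUSG00000032093, 44998740 to 45009627, minus strand) starts 27841 bases beyond the start of Cd3d. Their promoters are shown because these neighbours encode parts of one receptor and are compared throughout. They are RefSeq sequences of GRCm38.p6 from 250 bases before to 50 bases after a transcript start, at chr9:44981536-44981835 (Cd3d, plus strand), chr9:45009562-45009861 (Cd3e, minus strand) and chr9:44980382-44980681 (Cd3g, minus strand). This transcript start is not always the start of the gene. Counted from the start of the RefSeq gene, the windows begin 233 (Cd3d), 198 (Cd3e) and 250 (Cd3g) bases before it. Capitals mark the letters AGGAAG, the core bound by ETS factors, and CAGGTG, an E-box, read on both strands and nowhere overlapping here.
Cd3d: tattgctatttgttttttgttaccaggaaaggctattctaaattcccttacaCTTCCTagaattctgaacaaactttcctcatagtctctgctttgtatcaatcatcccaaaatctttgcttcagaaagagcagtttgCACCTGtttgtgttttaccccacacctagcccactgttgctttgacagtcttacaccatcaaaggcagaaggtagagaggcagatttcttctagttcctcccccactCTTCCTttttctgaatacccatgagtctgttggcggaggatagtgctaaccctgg
Cd3e: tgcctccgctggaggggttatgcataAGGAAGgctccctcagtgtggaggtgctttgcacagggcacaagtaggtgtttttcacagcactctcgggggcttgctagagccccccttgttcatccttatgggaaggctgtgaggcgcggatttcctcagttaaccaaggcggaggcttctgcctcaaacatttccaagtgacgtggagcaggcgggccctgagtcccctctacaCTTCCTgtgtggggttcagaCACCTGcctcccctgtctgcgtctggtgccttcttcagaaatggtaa
Cd3g: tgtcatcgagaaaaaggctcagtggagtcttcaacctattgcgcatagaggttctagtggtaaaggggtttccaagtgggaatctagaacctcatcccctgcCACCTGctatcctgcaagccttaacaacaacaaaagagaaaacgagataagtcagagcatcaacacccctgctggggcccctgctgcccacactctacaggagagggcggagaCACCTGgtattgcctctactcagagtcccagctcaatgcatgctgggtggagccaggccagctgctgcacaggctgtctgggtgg
Cd3d and Cd3e each hold 2 matches to AGGAAG and 1 to CAGGTG, whereas Cd3g holds 0 and 2. Of all 32851 promoters of this length, 35.4% hold AGGAAG and 20.2% hold CAGGTG. The letters TGTGGT (the RUNX core) and TATAAA, present in 16.8% and 13.6% of all promoters, are in none of these 3 windows. Promoters were matched for 9 of the 10 genes.

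Cd4 (ENSMUSG00000023274, 124864692 to 124888221), Cd8a (ENSMUSG00000053977, 71373427 to 71379173) and Klrb1c (ENSMUSG00000030325, 128778485 to 128789215) lie on chromosome 6. Gzma (ENSMUSG00000023132) is on chromosome 13 from 113093825 to 113100981, Gzmb (ENSMUSG00000015437) on chromosome 14 from 56258838 to 56262260, Prf1 (ENSMUSG00000037202) on chromosome 10 from 61297833 to 61304680, and Nkg7 (ENSMUSG00000004612) on chromosome 7 from 43437073 to 43438249. Values are summed over the exons of a gene.

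Total counts per library ranged from 13704248 to 23630210 in the anti-GBM experiment, from 15665050 to 27583911 in the Adriamycin experiment and from 11186925 to 16254987 in PCKS. Proximal tubule markers (5 of 5 detected) summed to between 6009 and 13885 CPM (counts scaled to the library total) in the kidneys of the anti-GBM experiment, to between 7547 and 9759 CPM in those of the Adriamycin experiment and to between 251 and 628 CPM in the slices, the lowest of the 3 experiments. Adipoq, a gene of fat cells, reached 3 CPM or more in the anti-GBM mice NTS2, NTS3 and NTS9 and in the Adriamycin mice Ad1, Ad3, Ad9, Ad10, Ad11 and Ad16, and 8 of these 9 mice were healthy. Among vehicle-treated anti-GBM mice, NTS8 had 179 counts of the pan-leukocyte gene Ptprc where the other 3 had 439 to 602. This mouse and slice 1F stood farthest from their groups, with a median absolute log2 difference of 0.239 and 0.282 over all genes tested, against a median of 0.149 in the anti-GBM experiment and 0.153 in PCKS.

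All 10 genes were detected at low counts. Of the 380 values, 1 per gene and library, 184 were under 10 counts and 12 were 0, and the highest was 145. A count of 0 allows up to 3 counts, which is 0.141 to 0.216 CPM in the anti-GBM experiment, 0.110 to 0.193 CPM in the Adriamycin experiment and 0.176 to 0.273 CPM in PCKS. This floor covers counting error only. The filter on low counts passed 7 of the 10 genes in the anti-GBM experiment (not Gzmb, Prf1 or Klrb1c), 6 in the Adriamycin experiment (not Cd3d, Gzmb, Nkg7 or Klrb1c) and 5 in PCKS (not Gzma, Gzmb, Prf1, Nkg7 or Klrb1c). Only Cd3e, Cd3g, Cd4 and Cd8a passed in all 3. The standard error of a log2 fold change is given as SE. Adjusted p-values are those of edgeR's quasi-likelihood test over all genes tested in a comparison, and a gene is called at an adjusted p below 0.05.

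Cd4 rose in anti-GBM disease. Its counts were 13, 14, 31 and 32 in healthy mice given vehicle and 71, 68, 56 and 26 in diseased mice given vehicle. Only NTS8, with 26 counts, fell within the healthy range. Expression averaged 1.27 ± 0.695 CPM in healthy and 3.19 ± 1.07 CPM in diseased mice (SD, n = 4 each), which is 2.56-fold, or 1.35 on the log2 scale (SE 0.35, edgeR adjusted p = 0.00727). Under FGF23, counts were 24, 28 and 28 in healthy mice and 84, 98 and 97 in diseased mice, with no overlap. Here the log2 fold change was 1.65 (SE 0.39, edgeR adjusted p = 0.00654), and healthy mice averaged 1.47 ± 0.427 CPM and diseased mice 4.58 ± 0.475 CPM (SD, n = 3 each). Without the 3 mice with Adipoq at 3 CPM or more, all of them healthy, the log2 fold changes of Cd4 were 1.21 (edgeR adjusted p = 0.0631) under vehicle and 1.50 (adjusted p = 0.0368) under FGF23. In bulk tissue, more cells of a type and more RNA per cell cannot be told apart.

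Cd3e, the signalling chain at the core of the CD3 complex, was the other gene called. It had 10, 10, 13 and 15 counts in healthy mice given vehicle and 30, 24, 19 and 10 in diseased mice given vehicle, where NTS8 was again the lowest. The log2 fold change was 0.86 (SE 0.32, edgeR adjusted p = 0.0477), and the call was lost in 9 of the 14 fits that left out 1 mouse. Under FGF23, the 3 healthy mice had 14, 15 and 19 counts and the 3 diseased mice 32, 35 and 33. The groups did not overlap, but the log2 fold change of 0.90 (SE 0.35) had an edgeR adjusted p of 0.0717. Called genes were 2 of the 7 tested under vehicle, where 19.4% of all genes were called higher and 39.8% called in either direction, and 1 of 7 under FGF23, where these shares were 14.5% and 27.2%. DESeq2 also called 2 and 1. An unadjusted edgeR p below 0.05 was reached by 4 of the 7 under vehicle and 6 of the 7 under FGF23, against 48.2% and 38.7% of all genes.

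The other 2 CD3 genes were not called. Cd3d had 5, 11, 11 and 6 counts in healthy and 16, 18, 17 and 8 in diseased mice under vehicle. In CPM these groups did not overlap, and the log2 fold change was 0.94 (SE 0.36, edgeR adjusted p = 0.0501). Under FGF23, its log2 fold change was 0.95 (SE 0.41, adjusted p = 0.0992). Cd3d passed the filter only through the diseased mice, so neither difference is support for a rise. Cd3g showed 7, 15, 30 and 18 counts in healthy and 35, 12, 18 and 6 in diseased mice under vehicle, so the groups overlapped throughout (log2 fold change 0.08, SE 0.45). Under FGF23, it had 18, 8 and 16 counts in healthy and 37, 33 and 31 in diseased mice, a log2 fold change of 1.11 (SE 0.50, edgeR adjusted p = 0.118).

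Cd8a spread widely in the diseased mice given vehicle, with 67, 36, 15 and 18 counts against 22, 28, 41 and 27 in healthy mice. The log2 fold change was 0.29 (SE 0.37, 95% interval -0.50 to 1.08). With FGF23, counts of 61, 62 and 53 in diseased mice all lay above the 23, 41 and 18 of healthy mice, and the log2 fold change was 1.00 (SE 0.42, edgeR adjusted p = 0.0910).

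Of the granule genes, Nkg7 had the highest level per kilobase. It had 11, 8, 18 and 10 counts in healthy and 15, 20, 24 and 20 in diseased mice under vehicle, and 11, 5 and 15 against 26, 27 and 24 under FGF23. The log2 fold changes were 0.87 (SE 0.37, edgeR adjusted p = 0.0741) and 1.13 (SE 0.42, adjusted p = 0.0597). Gzma stayed at 0 to 13 counts in all 14 mice, with log2 fold changes of -0.39 (95% interval -1.69 to 0.91) under vehicle and 0.23 (95% interval -1.22 to 1.68) under FGF23. These intervals are wide, and changes of this size either way were not detectable at this depth. The 3 genes below the filter showed no common direction. Prf1 had 4 to 14 counts in healthy and 3 to 8 in diseased mice under vehicle, and Klrb1c had 2 to 7 and 1 to 11. Gzmb had 3, 10, 9 and 5 counts in healthy mice given vehicle and 3 counts in each of the 4 diseased mice given vehicle.

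Under FGF23, 6 of the 7 genes tested had all diseased mice above all healthy mice, and under vehicle 1 of 7 did. Of all genes, 45.4% and 35.2% had groups that did not overlap in either direction. The median log2 fold change of the 7 genes was 0.86 under vehicle and 1.00 under FGF23, and that of all genes was -0.013 and -0.017. These 7 were the ones that passed the filter. Cd3d reached the filter's level in the diseased mice and in too few healthy mice to pass on those alone. It was thus tested because it was high in disease, and its part in these numbers and in the average below is no support. The smaller groups under FGF23 also separate by chance more easily than those under vehicle. When the disease difference was averaged over both treatments, a comparison added after seeing the data, Cd4 (1.50, edgeR adjusted p = 3.27e-04), Cd3e (0.88, adjusted p = 0.00737), Nkg7 (1.00, adjusted p = 0.00872) and Cd3d (0.95, adjusted p = 0.0103) were called, where 23.6% of all genes were called higher and 48.3% in either direction. Cd8a (0.65, adjusted p = 0.0696) and Cd3g (0.59, adjusted p = 0.160) were not, and Gzma was at -0.079 (adjusted p = 0.901).

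**Figure D1:**
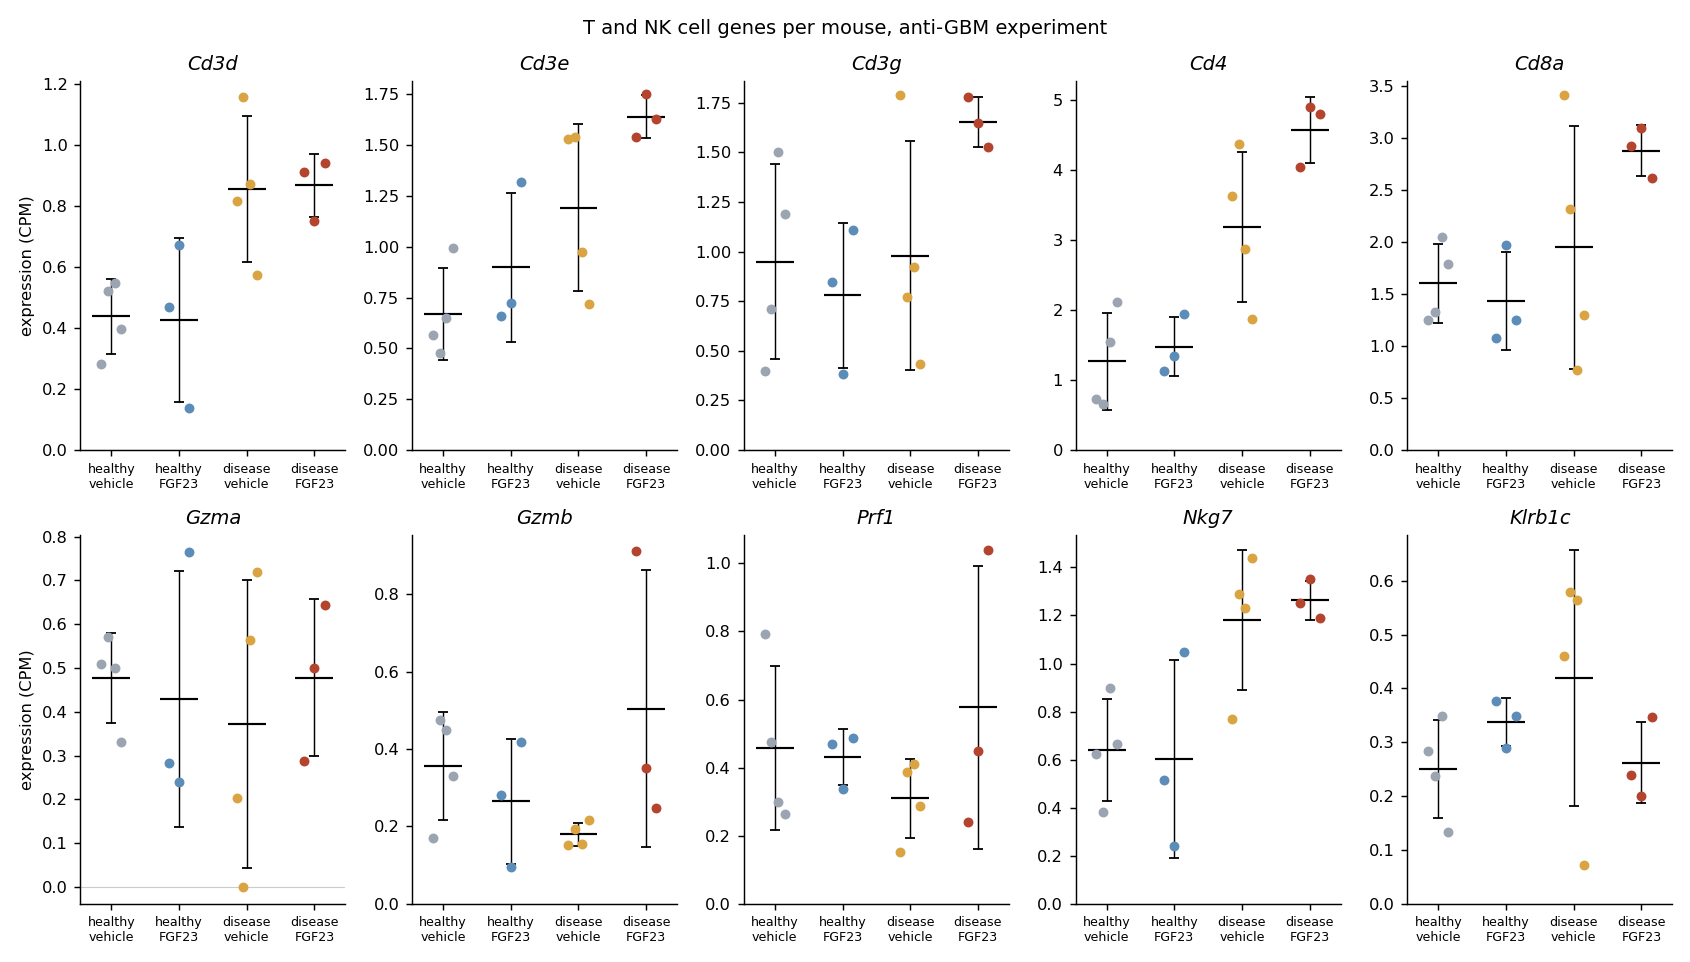
Expression in CPM of the 10 genes in each mouse of the anti-GBM experiment, by group. Points are mice, horizontal lines are means and error bars are SDs (n = 4, 3, 4 and 3 from left to right). Cd4 runs from 1.27 CPM in healthy mice given vehicle to 4.58 CPM in diseased mice given FGF23, while Gzma stays between means of 0.372 and 0.478 CPM.

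Markers of several other leukocytes, but not of all, were also higher in diseased mice. The 9 macrophage and monocyte markers, all detected, summed to 151 to 157 CPM in healthy and 319 to 612 CPM in diseased mice under vehicle, and to 137 to 188 CPM and 503 to 525 CPM under FGF23. The 5 pan-leukocyte markers, Ptprc among them, went from 46.5 to 58.4 CPM up to 86.6 to 148 CPM under vehicle and from 43.6 to 67.1 CPM up to 153 to 174 CPM under FGF23. Dendritic cell markers (5 of 5 detected) summed to 16.9 to 23.3 CPM in healthy and 36.3 to 39.2 CPM in diseased mice under FGF23, and these groups overlapped under vehicle. The B cell markers (5 of 5 detected) went the other way under FGF23, from 3.33 to 6.62 CPM down to 1.30 to 2.48 CPM. Mast cell and basophil markers overlapped under both treatments. They summed to 18.1 to 25.6 CPM in healthy and 18.3 to 24.6 CPM in diseased mice under vehicle, and to 19.2 to 20.1 CPM and 19.8 to 22.2 CPM under FGF23. Neutrophil markers (5 or 6 of 6 detected, Ly6g at 0 in all groups but diseased mice given vehicle) summed to at most 1.53 CPM in healthy and at least 2.38 CPM in diseased mice. Under FGF23, the 3 plasma cell markers went from 15.4 to 18.2 CPM up to 30.4 to 39.1 CPM and the 3 fibroblast markers from 162 to 203 CPM up to 589 to 719 CPM, and under vehicle both sums were likewise higher in all diseased than in all healthy mice. The proximal tubule markers went down under FGF23, from 10146 to 11980 CPM to 6009 to 8253 CPM, and overlapped under vehicle. The part of these cells in the change of Cd4 was not tested. The T cell markers summed to 5.38 to 9.04 CPM in healthy and 6.34 to 12.8 CPM in diseased mice under vehicle, and to 6.68 to 10.2 CPM and 14.2 to 14.9 CPM under FGF23. The 9 NK cell markers gave 3.09 to 4.39 CPM and 4.10 to 4.88 CPM under vehicle and 2.26 to 5.44 CPM and 4.52 to 6.86 CPM under FGF23, overlapping in both cases. The T cell markers include Cd3d, Cd3e and Cd3g, and the NK cell markers include Klrb1c, Nkg7, Prf1 and Gzma. Both sums thus partly repeat counts given above and are no separate evidence.

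FGF23 itself was compared with vehicle in diseased mice, the comparison closest to the question of whether the hormone adds to kidney inflammation. None of the 7 genes tested was called by edgeR, where 0.240% of all genes were called, and 0 of the 7 had an unadjusted p below 0.05, where 12.6% of all genes did. DESeq2 called 0 and gave 2 of the 7 no adjusted p. All 7 had a positive log2 fold change, from 0.015 for Cd3d to 0.72 for Cd3g (SE 0.45, edgeR adjusted p = 0.506). The median was 0.45, against -0.0017 over all genes. This comparison shares its mice with the disease comparisons, so the values of both are only given side by side. For Cd4 the log2 fold change was 0.52 (95% interval -0.21 to 1.25, adjusted p = 0.527), and for Cd8a it was 0.55 (95% interval -0.26 to 1.37, adjusted p = 0.543). The 3 mice given FGF23 lay close together in Cd3e, Cd3g, Cd4 and Cd8a, whereas the 4 given vehicle spread widely. NTS5, given vehicle, had the highest CPM of all 7 diseased mice in Cd3g (1.79) and Cd8a (3.42), and NTS6, also given vehicle, passed the lowest FGF23 mouse in Cd4 (4.38 against 4.04). The groups overlapped in all 7 genes, where 9.22% of all genes had groups that did not.

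Gzmb, below the filter, had groups of diseased mice that did not overlap, as 9.22% of the genes that passed the filter did. It had 3 counts, the floor, in each of the 4 mice given vehicle and 19, 7 and 5 in the 3 given FGF23. The counts of 7 and 5 lay within the 3 to 10 of healthy mice given vehicle. A fit without the count filter gave an unadjusted p of 0.0136 and an adjusted p of 0.495 over 30487 genes. Prf1 had 3, 6, 8 and 4 counts with vehicle and 5, 9 and 21 with FGF23, where NTS16 held the 21. Klrb1c had 9, 9, 11 and 1 counts with vehicle and 5, 4 and 7 with FGF23.

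In healthy mice, FGF23 left all 7 genes uncalled in edgeR and DESeq2, as it did all 15859 genes in edgeR (0%), and 0 of the 7 had an unadjusted p below 0.05, against 4.34% of all genes. Log2 fold changes ran from -0.31 (Cd3g) to 0.41 (Cd3e), with SEs of 0.36 to 0.64. The interaction, which asks whether FGF23 acted differently in disease and health, called none of the 7 in edgeR, where 0.0315% of all genes were called, and 0 had an unadjusted p below 0.05, against 8.30% of all genes. DESeq2 called 0 and gave 6 of the 7 no adjusted p. The largest edgeR value was that of Cd3g, 1.03 (95% interval -0.41 to 2.47, edgeR adjusted p = 0.683).

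**Figure D2:**
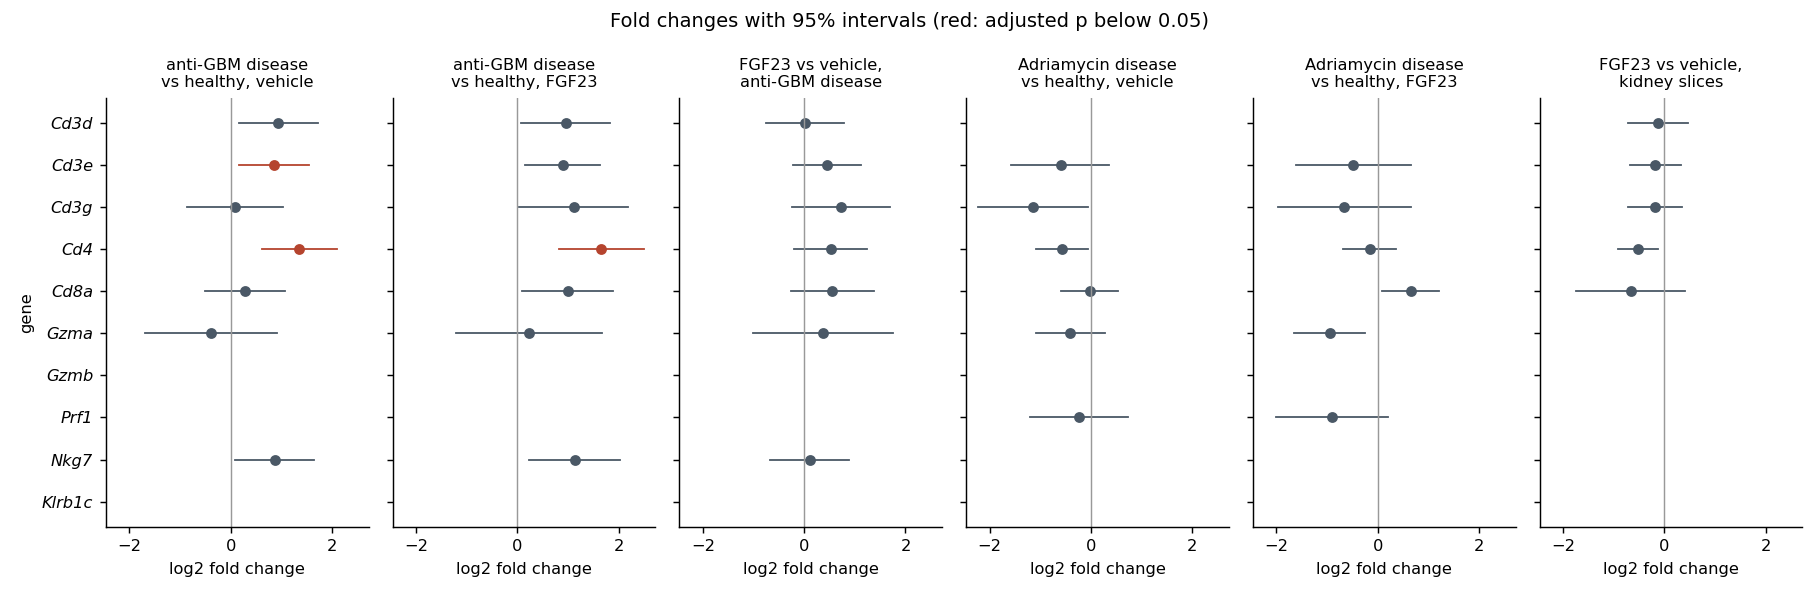
Log2 fold changes (x axis) of the genes that passed the filter (y axis) in 6 comparisons, with 95% intervals as bars. The intervals of Cd4 in both anti-GBM disease comparisons and of Cd3e under vehicle, drawn in red, belong to adjusted p-values below 0.05, and genes without a point did not pass the filter.

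In Adriamycin nephropathy, none of the 6 genes tested was called. With vehicle, all 6 had log2 fold changes below 0 in disease, from -1.14 for Cd3g to -0.025 for Cd8a, with a median of -0.49 against -0.0038 over all genes. Cd3g (edgeR unadjusted p = 0.0401) and Cd4 (-0.57, SE 0.24, edgeR unadjusted p = 0.0319) had adjusted p-values of 0.571 and 0.535. For Cd3g, the healthy group held mouse Ad1 with 56 counts beside 10, 11 and 21, and the diseased mice had 8, 12, 13 and 5. Ad1 also had the highest count of Cd3e (38 beside 7, 13 and 7) and of Cd4 (64 beside 29, 33 and 33), and its Adipoq stood at 8.83 CPM. Without Ad1 and the other 5 libraries with fat transcripts, the log2 fold change of Cd3g was -0.56, that of Cd4 -0.25, and that of Cd3e moved from -0.60 to 0.54. EdgeR called 0.331% of all genes in this comparison and gave 8.27% of them an unadjusted p below 0.05, and DESeq2 called 0 of the 6 genes.

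Under FGF23, Gzma was lower in diseased than in healthy mice and Cd8a higher, neither past the adjusted threshold. Gzma had 12, 14, 12 and 16 counts in healthy mice and 3, 5, 7 and 10 in diseased mice, a log2 fold change of -0.95 (SE 0.33, edgeR's quasi-likelihood test across all genes, unadjusted p = 0.0111, adjusted p = 0.244). Only Ad16, with 0.643 CPM, reached the healthy range. Cd8a had 24, 21, 12 and 13 counts in healthy and 29, 18, 34 and 19 in diseased mice, a log2 fold change of 0.65 (SE 0.27, edgeR's quasi-likelihood test across all genes, unadjusted p = 0.0273, adjusted p = 0.319). Prf1 was at 5 to 20 counts in healthy and 3, 3, 12 and 3 in diseased mice (log2 fold change -0.90, adjusted p = 0.508). All 6 genes stayed uncalled, where 0.699% of all genes were called, and 2 of the 6 had an unadjusted p below 0.05, where 12.7% of all genes did. DESeq2 called 0 and gave 4 of the 6 no adjusted p.

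FGF23 against vehicle called none of the 6 genes in healthy or diseased BALB/c mice, where 0% and 0.0375% of all genes were called, and in each case 0 of the 6 had an unadjusted p below 0.05, against 6.69% and 5.69% of all genes. In healthy mice, Cd3g had the lowest log2 fold change (-1.07, SE 0.51, edgeR unadjusted p = 0.0508), with Ad1 in the vehicle group. Gzma was higher in all 4 healthy mice given FGF23 than in all 4 given vehicle (0.632 ± 0.0905 against 0.509 ± 0.0499 CPM, SD, n = 4 each), with a log2 fold change of 0.30 (edgeR adjusted p = 0.884), and 3.14% of all genes had groups that did not overlap. The gap was narrow, from 0.550 to 0.555 CPM. In diseased mice, log2 fold changes ran from -0.78 (Prf1) to 0.44 (Cd8a). The interaction called 0 of the 6, at 0% of all genes, and 0 had an unadjusted p below 0.05 in edgeR, against 5.11% of all genes. DESeq2 called none of the 6 genes in these 3 comparisons, and gave no adjusted p for 4 of them in diseased mice and for all 6 in the interaction.

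Of the 4 genes below the filter in this experiment, 2 were mostly at or under the floor of 3 counts. Gzmb had 0 to 4 counts and Klrb1c 0 to 5 in all 16 mice, and 14 of the 16 mice had 3 or fewer of each. Nkg7 had 11, 9, 9 and 14 counts in healthy mice given vehicle, 6, 10, 0 and 8 in healthy mice given FGF23, and 2 to 9 in diseased mice. In CPM, all 4 healthy mice given FGF23 (0 to 0.396) were below all 4 given vehicle (0.403 to 0.593), a separation opposite to that of Gzma. Of the genes that passed the filter, 3.14% had groups that did not overlap here. The gap lay between Ad10 with 10 counts and Ad1 and Ad2 with 11 and 9. An edgeR fit without the count filter gave Nkg7 an unadjusted p of 0.142 and an adjusted p of 0.798. Cd3d had 1 to 15 counts, and in the diseased mice given FGF23 it had 2, 4, 1 and 3.

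**Figure D3:**
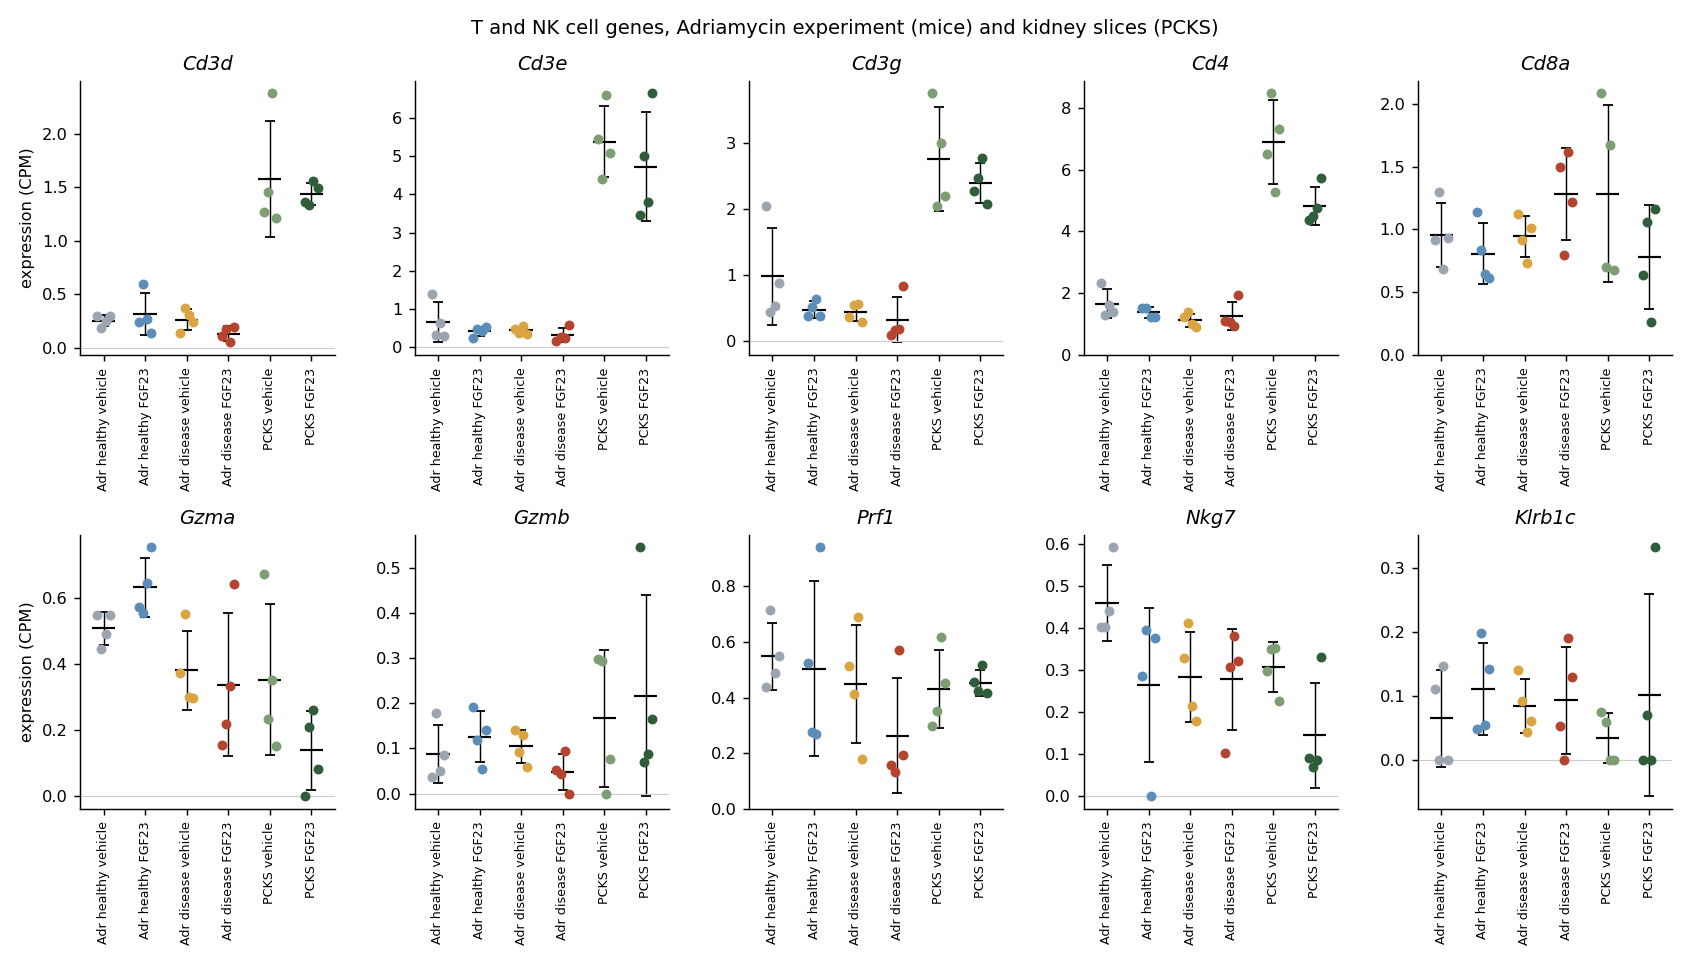
Expression in CPM of the 10 genes in each mouse of the Adriamycin experiment (n = 4 per group) and each slice culture (PCKS, n = 4 per group), with means as lines and SDs as error bars. Ad1 is the highest healthy vehicle-treated mouse in Cd3e, Cd3g and Cd4, and the slices stand at 5.38 and 4.72 CPM of Cd3e but at means of 0.138 to 0.353 CPM of Gzma.

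In the slices, the group means of Cd3d, Cd3e, Cd3g and Cd4 stood above every group mean in the mice, and those of Cd8a and of the killing genes did not. Cd3e had 73, 75, 75 and 67 counts with vehicle and 38, 71, 44 and 80 with FGF23. This was 5.38 ± 0.930 and 4.72 ± 1.44 CPM (SD, n = 4 each), where no in vivo group exceeded a mean of 1.64 CPM. Against that, Gzma had 9, 4, 4 and 2 counts with vehicle and 0, 3, 3 and 1 with FGF23, Prf1 had 4 to 7 and 5 to 6, and Klrb1c had 0 or 1 with vehicle and 0, 1, 0 and 4 with FGF23. These values stand side by side without a test, since strain, diet and culture differ from the in vivo experiments.

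FGF23 called none of the 5 genes tested in slices by edgeR or DESeq2, where 0% of all genes were called by edgeR. All 5 log2 fold changes were below 0, from -0.67 for Cd8a to -0.12 for Cd3d, with a median of -0.19 against -0.0066 over all genes. Cd4 had 87, 145, 60 and 97 counts with vehicle and 48, 64, 55 and 69 with FGF23. Its log2 fold change was -0.52 (SE 0.18, edgeR's quasi-likelihood test across all genes, unadjusted p = 0.0152, adjusted p = 0.849), the one gene of the 5 with an unadjusted p below 0.05, where 4.89% of all genes had one. Only slice 4F, at 5.73 CPM, reached the range of the vehicle slices, whose lowest was 3V at 5.29 CPM. Cd8a had 28, 12, 19 and 9 counts with vehicle and 7, 15, 3 and 14 with FGF23 (adjusted p = 0.849). Nkg7, below the filter, had 4, 6, 4 and 3 counts with vehicle and 1, 1, 1 and 4 with FGF23. Pan-leukocyte markers (5 of 5 detected) summed to 248 to 282 CPM with vehicle and 166 to 280 CPM with FGF23.

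Per kilobase of exon, the order of the genes differed between experiments and groups. In the anti-GBM experiment Nkg7 had the highest mean in each of the 4 groups, at 0.701 CPM per kb in healthy and 1.29 in diseased mice under vehicle and at 0.657 and 1.38 under FGF23. Next came Gzma in healthy mice (0.475 CPM per kb under vehicle and 0.427 under FGF23) and Cd4 in diseased mice (0.791 and 1.14). In the Adriamycin experiment Gzma had the highest mean in 3 groups, at 0.379 to 0.628 CPM per kb, and in diseased mice given FGF23 Cd8a stood at 0.353 and Gzma at 0.336. Klrb1c had the lowest mean in each Adriamycin group, at 0.0217 to 0.0372 CPM per kb. In PCKS, Cd4 at 1.46 and Cd3e at 1.24 CPM per kb led, Nkg7 was at 0.247, Gzma at 0.244 and Klrb1c at 0.0226 CPM per kb. Reads of all 3 strains were aligned to the C57BL/6 genome, and how this bears on Klrb1c was not tested. For Cd4 in the anti-GBM experiment, the steps down from diseased mice given FGF23 (4.58 CPM) to diseased mice given vehicle (3.19 CPM) and on to healthy mice given FGF23 (1.47 CPM) each exceeded the larger SD of the 2 groups, and the step to healthy mice given vehicle (1.27 CPM) did not.

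The CD3 genes were also set against the leukocyte gene Ptprc. The summed counts of Cd3d, Cd3e and Cd3g per 100 counts of Ptprc were 14.2 ± 3.77 (SD, n = 4) in healthy and 12.8 ± 0.678 (SD, n = 4) in diseased anti-GBM mice under vehicle, and 15.3 ± 1.09 and 11.6 ± 0.801 (SD, n = 3 each) under FGF23. NTS8, with its low Ptprc count, had a ratio of 13.4. In slices the ratio was 20.4 ± 5.26 and 20.9 ± 3.61 (SD, n = 4 each). The 5 genes of the killing machinery and NK1.1 came to 15.8 ± 4.79 per 100 Ptprc in healthy and 12.1 ± 6.78 in diseased anti-GBM mice under vehicle, 14.3 ± 3.55 and 8.63 ± 1.49 under FGF23, and to 2.74 ± 0.869 and 2.64 ± 0.851 in slices. Cd8a counts per count of Cd4 were 1.46 ± 0.498 in healthy and 0.608 ± 0.284 in diseased mice of the anti-GBM experiment under vehicle, with 1.69, 2.00, 1.32 and 0.844 in the 4 healthy mice and 0.944, 0.529, 0.268 and 0.692 in the 4 diseased ones. Under FGF23, the ratio was 1.02 ± 0.414 in healthy and 0.635 ± 0.0899 in diseased mice (SD, n = 3 each), and the groups overlapped. In the Adriamycin experiment the same ratio was 0.620 ± 0.281 in healthy and 0.866 ± 0.209 in diseased mice under vehicle. These ratios are descriptions and were not tested.

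**Figure D4:**
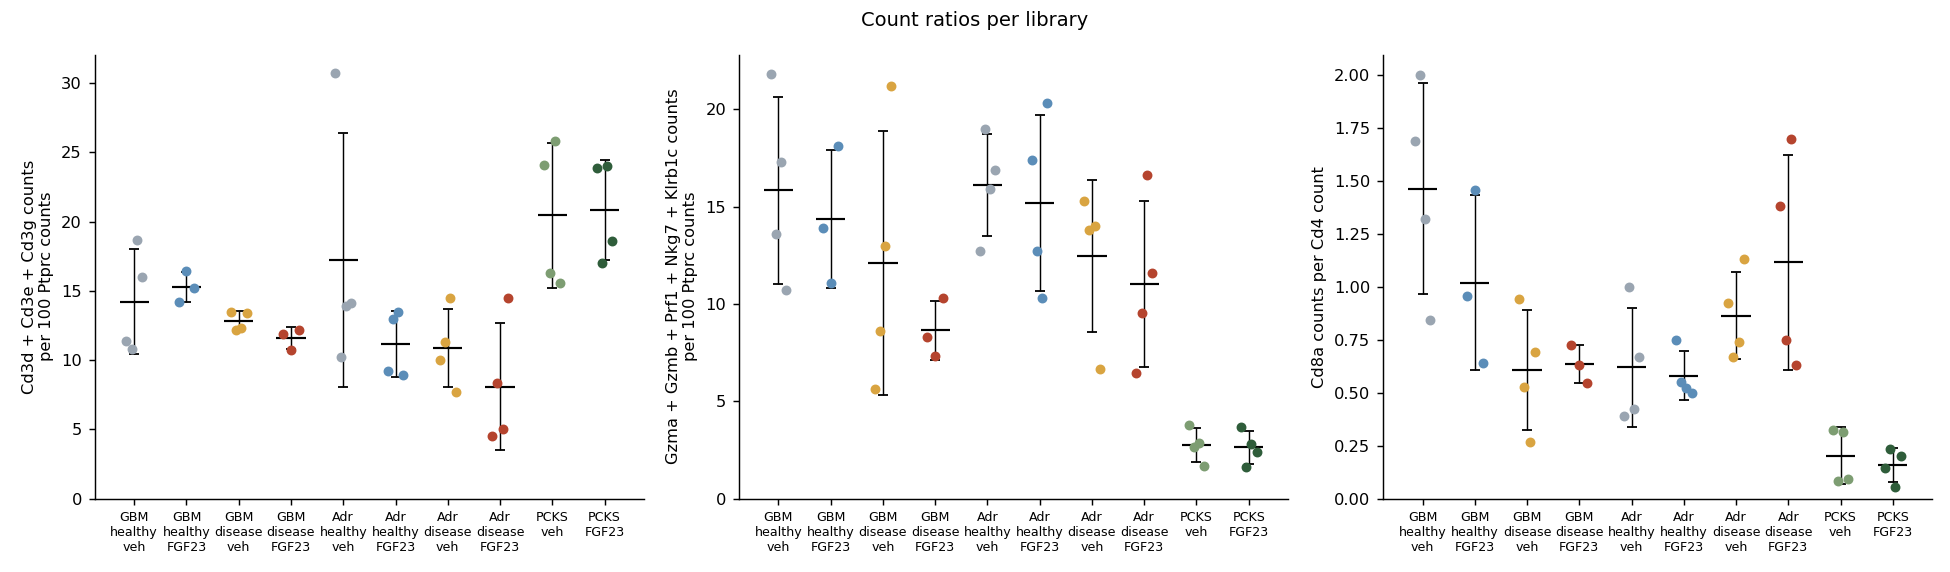
Ratios of summed counts (y axes) in each library of the 10 groups, with means as lines and SDs as error bars. CD3 counts per 100 Ptprc counts stay between means of 8.08 and 20.9, killing and NK genes per 100 Ptprc counts fall to 2.74 and 2.64 in the slices, and Cd8a per Cd4 lies highest in healthy anti-GBM mice given vehicle at 1.46.

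Further genes of these cells followed in 4 lists. Their counts in anti-GBM disease stand against 19.4% of all genes called higher and 39.8% in either direction under vehicle, and 14.5% and 27.2% under FGF23, and nothing particular to a list is read from them. Of 26 genes of the T cell receptor and T cell identity, 21 were tested in the anti-GBM experiment, and 6 were called higher and 1 lower in disease under vehicle and likewise under FGF23 (median log2 fold change 0.40 and 0.79). Under vehicle, the adaptor Lcp2 (1.24, edgeR adjusted p = 9.61e-04), the receptor kinase Zap70 (1.55, adjusted p = 0.00497) and the T cell factor Tcf7 (0.91, adjusted p = 0.00638) rose. Bcl11b, a T cell lineage factor, fell by 0.99 on the log2 scale (edgeR adjusted p = 7.83e-04), from 11.3 ± 1.68 to 5.64 ± 1.58 CPM (SD, n = 4 each). In the same healthy mice Cd3e averaged 0.671 CPM, and which cells carried Bcl11b was not tested. Under FGF23, Lcp2 (1.82, adjusted p = 2.64e-04), Cd8b1, the partner chain of Cd8a (1.82, adjusted p = 0.00720), and the receptor Cd5 (1.36, adjusted p = 0.00956) rose, and Bcl11b fell by 0.61 on the log2 scale (adjusted p = 0.0387).

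Of 27 NK cell and cytotoxic effector genes, 14 were tested, and 7 were called higher under vehicle and 12 under FGF23, with 0 lower (medians 0.82 and 1.26). The smallest p-values were those of Ccl5, a chemokine of activated T and NK cells, Serpinb9, an inhibitor of granzyme B, its relative Serpinb9b, and Il18rap, a chain of the interleukin-18 receptor. Ccl5 went from 1.63 ± 0.783 to 8.92 ± 2.50 CPM (SD, n = 4 each) under vehicle, a log2 fold change of 2.43 (edgeR adjusted p = 1.69e-04), and by 3.01 (adjusted p = 1.41e-04) under FGF23. Serpinb9 rose by 0.97 and 1.18 and Il18rap by 1.58 and 1.87 on the log2 scale. In healthy mice given vehicle, Serpinb9 averaged 23.4 CPM, where Cd3e averaged 0.671 CPM and Nkg7 0.641 CPM. Which cells carried the genes of this list and of the other lists was not tested. Serpinb9b was at 0.0290 ± 0.0342 CPM in healthy and 0.882 ± 0.233 CPM in diseased mice under vehicle.

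Of 21 genes of helper, regulatory and gamma-delta T cells, 12 were tested, with 5 called higher under vehicle and 4 under FGF23 (medians 0.92 and 0.84). Il2ra, the high-affinity interleukin-2 receptor chain (1.73, edgeR adjusted p = 0.00213), the co-stimulatory receptor Tnfrsf4 (2.01, adjusted p = 0.00792) and the chemokine receptor Cxcr3 (0.93, adjusted p = 0.0346) rose under vehicle, and Cxcr6 (0.92, adjusted p = 0.0224), Icos (1.28, adjusted p = 0.0253) and Cxcr3 (1.09, adjusted p = 0.0299) under FGF23. Of 7 inhibitory receptors, 6 were tested, and Lag3 (1.40, adjusted p = 0.00246), Havcr2 (1.36, adjusted p = 0.00515) and Pdcd1 (2.38, adjusted p = 0.00988) rose under vehicle and Lag3 (1.53, adjusted p = 0.00357) and Havcr2 (1.60, adjusted p = 0.00596) under FGF23 (medians 1.26 and 1.50). In the FGF23 comparisons and interactions of all 3 experiments, 0 genes of the 4 lists were called by edgeR. An unadjusted p below 0.05 was reached by 5 of 53 list genes for FGF23 in healthy anti-GBM mice, 12 of 53 in diseased mice and 4 of 53 in the interaction, by 2, 5 and 1 of 33 likewise in the Adriamycin experiment, and by 4 of 47 in PCKS. Of all genes, 4.34%, 12.6% and 8.30% did in the anti-GBM experiment, 6.69%, 5.69% and 5.11% in the Adriamycin experiment and 4.89% in PCKS. DESeq2 was not run on the lists.

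Over the 13974 genes that passed the filter in all 3 experiments, 6 others had levels most like the mean of Cd3e, Cd3g, Cd4 and Cd8a, by Pearson's r of log2 CPM centred on the group means over 38 libraries. They were Arhgap45 (r = 0.802), Lcp2 (0.734), Selplg (0.721), Grap2 (0.713), Ccdc88b (0.712) and Itgb2 (0.707). Among the 4 genes themselves, Cd3e and Cd3g had r = 0.661, Cd3e and Cd4 0.635 and Cd3g and Cd4 0.605, whereas Cd8a reached 0.132 to 0.183 with the other 3. The libraries share a depth and a tissue piece within each point, and no p is given.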

How the data were processed

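The authors prepared stranded mRNA libraries, sequenced paired reads of 58 bases, aligned them to GRCm38 with STAR 2.7.9a and assigned them to Ensembl genes with featureCounts 1.5.1, per the study's methods and the submitters' processing notes. The deposited values are raw counts of 55487 genes in 38 libraries. How reads that match several genes and read strand were counted is not given in the sources used here. Symbols were matched for 55141 genes, and 346 had none.

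Samples were grouped from the labels. Columns of mice were matched to groups by their headers as the study's supplement lists them, where the header of mouse NTS14 reads NTS4. No 2 libraries were alike within counting noise, with chi-square over its degrees of freedom at 2.12 or more within groups. The lowest values were those of slices 2F and 4F (2.12) and slices 1V and 3V (3.09), and the next was 6.45, of mice Ad2 and Ad4. The study calls the 4 slice replicates per group biologically independent. Which mouse gave each slice is not stated in the sources used here, and whether slices share a mouse was not tested. P-values measure the spread between these samples and treat the slices as independent.

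All groups of an experiment entered 1 fit of edgeR's quasi-likelihood test (edgeR 4.0.16, R 4.3.3), with TMM factors of 0.891 to 1.14 (anti-GBM), 0.964 to 1.03 (Adriamycin) and 0.973 to 1.05 (PCKS), a filterByExpr minimum of 10 counts, and p-values adjusted per comparison by Benjamini-Hochberg, after a test on simulated data. Genes tested numbered 15859, 16020 and 15090. CPM are TMM-scaled, levels per kb use exonic lengths of GENCODE M21, and log2 CPM used a prior count of 2. Total counts per library limit precision, as given with the results.

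All 10 members are named. Of each of 4 lists, up to 4 called genes with the smallest p are named per comparison, and the 6 genes most like the members. One list gene that the rule names is not reported here. The members and lists were chosen with earlier results of these data known. Alternatives were DESeq2 1.42.0, RLE, other filters and cutoffs, a robust fit, adjustment over the comparisons of an experiment combined, only the 2 groups compared, a replicate block in PCKS and each library left out. The average over treatments and the fit without libraries with Adipoq at 3 CPM or more were chosen after seeing the data.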

Additional observations from a re-analysis of the deposited data

Results flagged for a closer look

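Dixon's test was applied to 80 sets of 4 values, 1 per gene and group of 4, and marked 4, where chance marks about 1 in 20. In Adriamycin mice given FGF23, Ad16 stood above the other 3 in Cd3g (0.836 CPM, where the others had 0.104 to 0.190 CPM) and in Cd4 (1.93 CPM, where the others had 0.952 to 1.09 CPM), and Ad16 was the 1 mouse of its group with Adipoq above 3 CPM, at 3.09 CPM. In the same group, Ad15 stood above the others in Prf1, with 0.571 CPM and 12 counts where the others had 3 each. Among slices given FGF23, 4F stood above the others in Nkg7, with 0.332 CPM from 4 counts where the others had 1 each. The interaction called no gene as responding differently to FGF23 in disease and health. Opposite directions occurred only among uncalled genes. In the anti-GBM experiment, Cd3g, Cd8a, Gzma and Nkg7 had negative log2 fold changes for FGF23 in healthy mice and positive ones in diseased mice. In the Adriamycin experiment, Cd4 and Cd8a did likewise, and Gzma went the opposite way.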

How the results depend on the processing

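With DESeq2, RLE and a robust fit, as many of the 10 genes, within 1.5 times, were called in each comparison as in the main test, and in the comparisons other than anti-GBM disease 0 were called under every alternative run. In anti-GBM disease under vehicle, where 2 were called, the number was 1 with a cutoff of 1 on the absolute log2 fold change, 1 with no count filter, 1 with adjustment over the comparisons combined, 4 with disease averaged over both treatments and 0 without the libraries with fat transcripts, a fit with 3 fewer healthy mice. Leaving out 1 library at a time gave 1 to 4. Under FGF23, where 1 was called, it was 2 with at least 10 counts in every library, 3 with only the 2 groups compared and 4 with the average, and 1 to 3 with 1 library left out. Cd4 stayed called with each library left out (adjusted p 0.00267 to 0.0238 under vehicle and 0.00397 to 0.0332 under FGF23 in edgeR's test). Cd3e under vehicle ranged from 0.02 to 0.122, and lost its call without NTS1, NTS2, NTS3, NTS5, NTS6, NTS10, NTS13, NTS14 or NTS16, while Cd3d gained one without NTS3, NTS8, NTS10 or NTS11 and Nkg7 without NTS3, NTS5, NTS10 or NTS11. Under FGF23, calls were gained by Cd3e without NTS8 or NTS11, Cd8a without NTS5 or NTS7, Nkg7 without NTS5 or NTS11 and Cd3d without NTS10. The cause was not tested.

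Of 70 log2 fold changes, 24, none of them called, changed sign with 1 library left out. For FGF23 in healthy mice of the anti-GBM experiment they were Cd8a -0.46 to 0.06, Nkg7 -0.73 to 0.24, Cd3g -0.60 to 0.04, Cd3d -0.44 to 0.38, Gzma -0.85 to 0.04. For FGF23 in anti-GBM disease they were Nkg7 -0.05 to 0.22, Cd3d -0.11 to 0.18, Gzma -0.02 to 0.81. For anti-GBM disease under vehicle they were Cd8a -0.11 to 0.57, Cd3g -0.35 to 0.45. For anti-GBM disease under FGF23 they were Gzma -0.06 to 0.88. For the anti-GBM interaction they were Cd4 -0.05 to 0.52, Nkg7 -0.13 to 0.84, Cd3d -0.36 to 0.45, Cd3e -0.20 to 0.38. For FGF23 in healthy mice of the Adriamycin experiment they were Prf1 -0.61 to 0.10, Cd3e -0.93 to 0.03. For FGF23 in Adriamycin disease they were Cd4 -0.12 to 0.25. For Adriamycin disease under vehicle they were Cd8a -0.15 to 0.15, Cd3e -0.85 to 0.11. For the Adriamycin interaction they were Cd3g -0.42 to 0.77, Cd3e -0.59 to 0.37. For FGF23 in PCKS they were Cd3g -0.31 to 0.00, Cd3d -0.22 to 0.12.

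Other sign changes were also among uncalled genes. Without the libraries with fat transcripts, Cd8a moved to 0.13 and Gzma to 0.18 for FGF23 in healthy mice and Cd3d to -0.36 for the anti-GBM interaction. In Adriamycin mice, where 1 healthy mouse given FGF23 was left and assumed to vary like the others, Prf1 moved to 0.57 and Cd3e to 0.75 for FGF23 in healthy mice, Cd4 to -0.12 for FGF23 in disease, Cd3e to 0.54 for disease under vehicle, and Cd3g to -0.65 and Cd3e to -1.73 for the interaction. With disease averaged over both treatments, Gzma was at -0.08 in the anti-GBM experiment and Cd8a at 0.31 in the Adriamycin experiment. With RLE and with DESeq2, Cd3d was at -0.01 for the anti-GBM interaction.

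With slice numbers as a replicate block, 0 of 5 genes were called, as without it, and Cd4 was at -0.51 (edgeR adjusted p = 0.796). Same-numbered slices had correlations of 0.107, 0.105, -0.105 and 0.112 between their deviations from the group means, so that not every pair passed 0.1 and the numbers were not taken as pairs. As a hint from the data, not the design, 5 of 8 slices correlated best with their own number. No paired analysis was possible for the mice because their columns carry no replicate number shared between groups.

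Of 380 values, 184 are under 10 counts, and 3, 4 and 5 of the 10 genes were not tested in the anti-GBM, Adriamycin and PCKS data because of them.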
